A study of Mus musculus with 2 samples.

Results

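Immune checkpoint genes encode the receptors that restrain activated lymphocytes and the ligands that engage them. The 10 members described here were the 6 receptors *Pdcd1* (PD-1), *Ctla4*, *Lag3*, *Tigit*, *Havcr2* (TIM-3) and *Vsir* (VISTA) and the 4 ligands *Cd274* (PD-L1), *Pdcd1lg2* (PD-L2), *Cd80* and *Cd86*. Their rows were found by gene symbol, and each was 1 of the 33696 genes counted in this single-cell RNA-seq series. The list of members was proposed with earlier results of these data known.

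PD-1 on a T cell binds PD-L1 or PD-L2 on a neighbouring cell and dampens signalling from the T cell receptor. CTLA-4 competes with the costimulatory receptor CD28 for CD80 and CD86 on antigen-presenting cells, and LAG-3, TIGIT and TIM-3 add further restraint on T and NK cells. VISTA is carried by myeloid cells, including microglia, as well as by T cells, and PD-L1 is inducible by interferons in many cell types.

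The study examined how microglia of the thalamus contribute to memory deficits after cortical injury. It used these libraries to ask how blocking CD9, a tetraspanin of the cell surface, changed the states of thalamic microglia. Both groups were C57B6/J mice that had received a cortical ablation injury (CAI), and both received an antibody at 1.0 µg/µl into the thalamus through a cannula. One group (control Ab) received normal rat IgG and the other (anti-CD9 Ab) received the rat antibody KMC8 against CD9, with injections from day 7 to day 19 after injury. CD45-positive cells of the thalamus were collected on day 21, pooled over mice and counted by droplet sequencing of 3′ ends with unique molecular identifiers (UMIs). Ages of the mice were not given in the labels.

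Each group was a single library of pooled mice, so no replicate error could be measured and no test between antibodies was possible. The antibody, the pool of mice and the library cannot be told apart. Every value is therefore a measurement of these 2 libraries, and where values stand in pairs, control Ab comes before anti-CD9 Ab. The 95% intervals are exact Poisson intervals for counts per 1000000 UMIs of the same cells (CPM), exact conditional intervals for log2 ratios and exact binomial intervals for shares of cells, and they cover counting error only.

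The control Ab library held 12245 barcodes and 38042608 UMIs, and the anti-CD9 Ab library held 15173 barcodes and 40825201 UMIs. After filters on genes and mitochondrial counts, 7467 control Ab cells (median 1880 UMIs) and 9162 anti-CD9 Ab cells (median 1419 UMIs) were kept. *Ptprc*, which encodes the CD45 used for the sort, had a UMI in 61.7% and 65.1% of them, and *Cd9* stood at 2369 and 931 CPM. The libraries shared 54 barcodes, of which 18 were kept cells in both.

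Clustering without the members or their pathway gave 25 clusters, of which 10 could be given to the 6 cell types by their markers. The markers used for naming include genes of that pathway, among them *Cd2*, *Cd3e* and *Lck* for T cells. A pair of T cell-like clusters was led by *Themis* (αβ T cell genes) and by *Trdc* (γδ T cell genes), and a pair of microglia-like clusters by *Siglech* with *P2ry12* and by *Lpl* with *Cst7*. Macrophage-like cells formed 1 cluster led by *Arg1* and *F13a1*, dendritic cell-like cells a *Wdfy4*-led and a *Ccr7*- and *Fscn1*-led (mature) cluster, and neutrophil-like cells a *Cxcl2*- and *Ccl4*-led and a *Retnlg*- and *S100a8*-led cluster. The suffix "-like" is dropped from here on. *Ctla4* was among the 10 leading genes of the *Themis*-led cluster and *Lag3* among those of the *Lpl*-led cluster, so their level there relative to other clusters is a description.

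The cell types differed greatly in number between the libraries. With control Ab there were 2785 T cells, 90 NK cells, 1877 microglia, 212 macrophages, 115 dendritic cells and 61 neutrophils. With anti-CD9 Ab there were 876 T cells, 56 NK cells, 814 microglia, 1285 macrophages, 343 dendritic cells and 2687 neutrophils. Neutrophils were thus 0.817% of kept control Ab cells and 29.3% of kept anti-CD9 Ab cells. The control Ab neutrophils held 68617 UMIs in all, which set the width of every neutrophil interval. Another 1190 control Ab and 2501 anti-CD9 Ab cells fell in 8 clusters that were left unnamed.

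A member was counted as higher or lower in a cell type where it differed at least 2-fold in CPM and had at least 50 UMIs over both libraries. Of the 60 values (10 members in 6 cell types), 40 had 50 UMIs or more. Among these, 12 were at least 2-fold higher and 4 at least 2-fold lower with anti-CD9 Ab. The higher values were led by *Cd274*, which passed in microglia, macrophages, dendritic cells and neutrophils, and the lower values included *Pdcd1* in microglia and *Lag3* in macrophages.

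The members' counts were read against all genes tested in each cell type. Because the members were proposed with earlier results of these data known, these shares are a description. In T cells 3 of 10 passing members were higher and 0 lower, where 1.69% of 9393 genes were higher and 2.28% lower, and the median log2 ratio was 0.47 over the members and -0.08 over all genes. In microglia 2 of 9 were higher and 1 lower, against 3.36% and 4.48% of 11149 genes, with medians of 0.14 and 0.01. Macrophages had 2 of 8 higher and 1 lower, against 8.06% and 6.32% of 9131 genes, with medians of 0.40 and -0.02.

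Dendritic cells had 3 of 7 members higher and 0 lower, against 7.41% and 3.61% of 5899 genes, with medians of 0.81 and -0.02. Neutrophils had 2 of 6 higher and 2 lower, against the wider background of 13.1% and 19.5% of 5421 genes, with medians of 0.20 (*Pdcd1lg2* set to no difference) and -0.10. NK cells had 0 members with 50 UMIs, and 5.62% and 1.96% of 1175 genes were called.

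**Figure D1:**
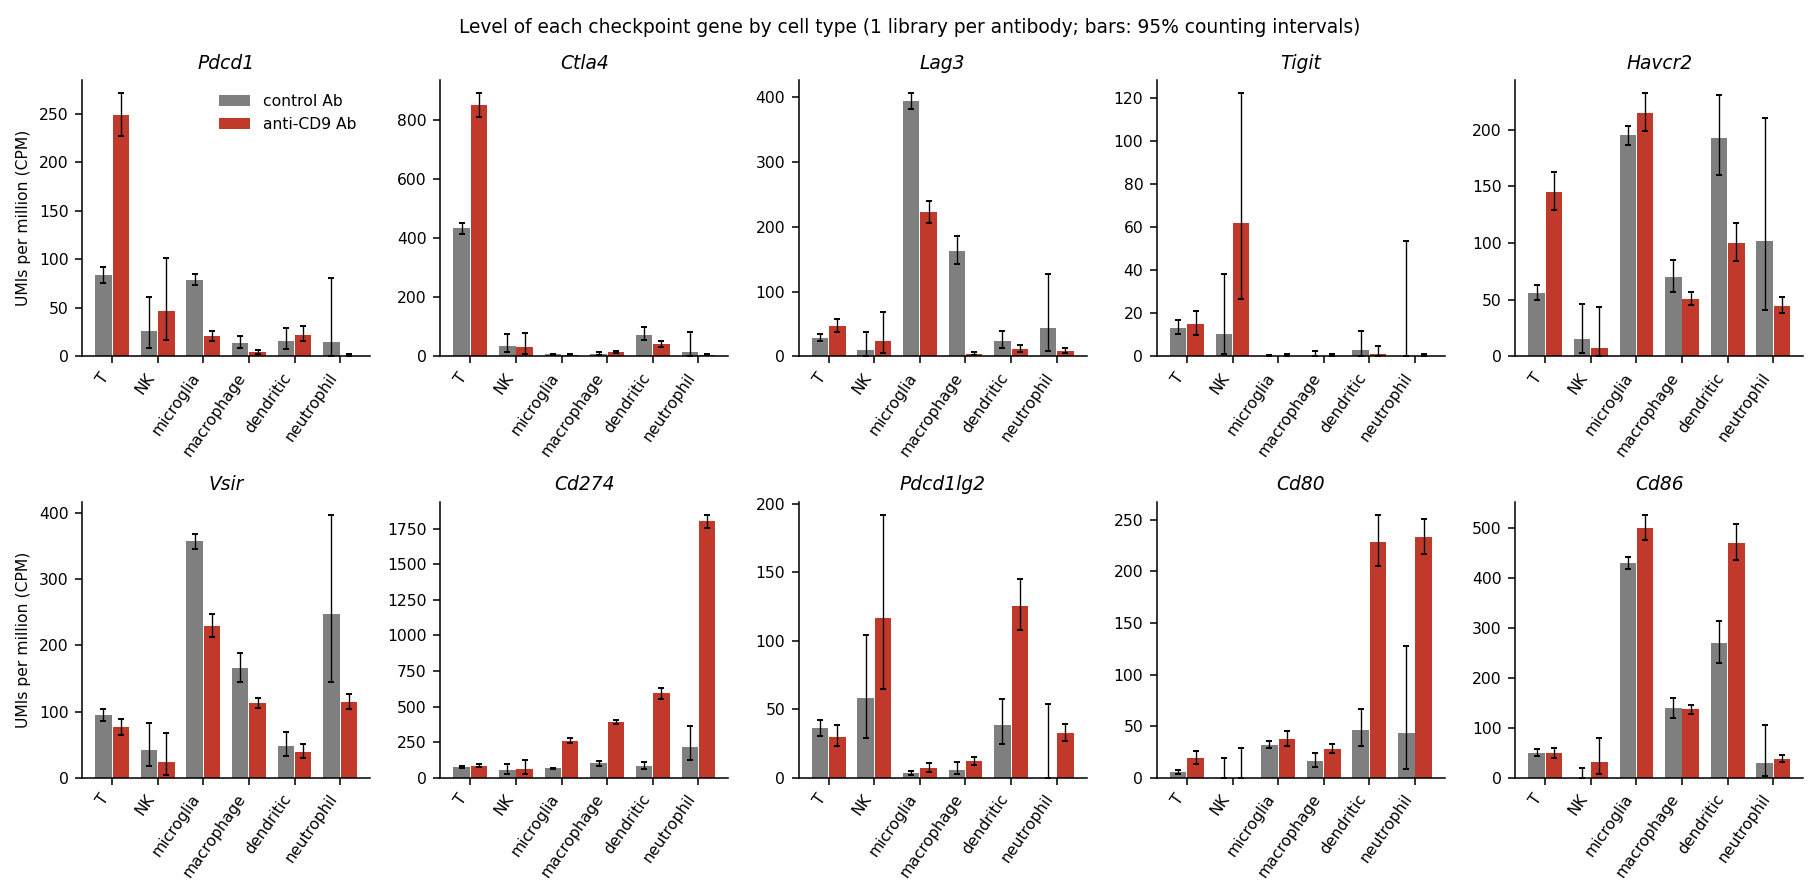
Level of each of the 10 members in CPM (vertical axis, a scale of its own for each gene) in each of the 6 cell types, with a grey bar for control Ab, a red bar for anti-CD9 Ab and lines for the exact Poisson 95% interval. *Cd274* with anti-CD9 Ab is highest in neutrophils at 1800.5 CPM, and *Lag3* is lower with anti-CD9 Ab in microglia and macrophages (the microglial direction was lost without integration, at a log2 ratio of 0.12).

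*Pdcd1*, the gene of PD-1, was higher in T cells and lower in microglia with anti-CD9 Ab. In T cells it had 396 UMIs with control Ab, or 84.0 CPM (76.0 to 92.7), and 517 UMIs with anti-CD9 Ab, or 249 CPM (228 to 271). The ratio was 2.96-fold, a log2 ratio of 1.57 (1.37 to 1.76), and the intervals of the libraries did not overlap. Thinned to 1000 UMIs per cell, which left out 340 control Ab and 73 anti-CD9 Ab T cells, a *Pdcd1* UMI was found in 8.30% and 17.6% of T cells, against 12.2% and 30.5% before thinning. Plasma cells, which should carry little *Pdcd1* and had medians of 9579 and 10383 UMIs against 1545 and 2140 in T cells, had a UMI in 2.80% and 1.68% before thinning.

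The *Pdcd1* ratio was nearly the same in both T cell clusters. Among *Themis*-led T cells *Pdcd1* was 55.1 CPM with control Ab and 164 CPM with anti-CD9 Ab, a 2.97-fold ratio. *Trdc*-led T cells were higher in both libraries, at 118 and 348 CPM, a 2.96-fold ratio. Within T cells that had a *Cd4* UMI and no *Foxp3*, *Cd8a* or *Cd8b1* UMI (436 and 176 cells) the levels were 77.0 and 237 CPM. These cells thus stood close to the whole class. Few T cells of the class (35 and 9) had a *Cd8a* or *Cd8b1* UMI without a *Cd4* or *Foxp3* UMI. The *Cd8b1*-led cluster was left unnamed and outside the class. Its *Pdcd1* log2 ratio was 0.49 (-0.52 to 1.41).

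In microglia, *Pdcd1* went the other way. It had 847 UMIs (79.0 CPM, 73.8 to 84.6) with control Ab and 62 UMIs (20.7 CPM, 15.9 to 26.5) with anti-CD9 Ab, 3.82-fold lower, with a log2 ratio of -1.93 (-2.33 to -1.56). Both microglial clusters were lower, at 41.4 against 10.0 CPM in *Siglech*-led and 99.5 against 34.7 CPM in *Lpl*-led cells. Without integration of the libraries, which left 2020 and 201 microglia, the log2 ratio was -0.67 and no longer 2-fold. The summed T cell markers in microglia were also lower, at 213 and 23.03 CPM with 10 of 10 markers detected in each library. There were 37.0 and 89.9 *Pdcd1* UMIs per 100 T cell marker UMIs in microglia, and 0.831 and 2.83 in T cells. The part of T cell RNA in the microglial *Pdcd1* value was not tested.

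The cells that held most *Pdcd1* UMIs differed between the libraries. In the control Ab library microglia held 55.5% of all *Pdcd1* UMIs, and in the anti-CD9 Ab library 7.01%, whereas T cells held 26.0% and 58.5%. Microglia were 25.1% and 8.88% of kept cells and T cells 37.3% and 9.56%, and these shares of UMIs do not separate level from cell number. Summed over all kept cells, *Pdcd1* was 61.2 and 39.0 CPM. The other 4 cell types compared had few UMIs, with 19 and 30 UMIs in macrophages, 10 and 33 in dendritic cells, 5 and 6 in NK cells and 1 and 3 in neutrophils. Outside the 6 types, cycling cells had 67 and 106 *Pdcd1* UMIs (4.39% and 12.0% of all) and the unnamed clusters 165 and 121 (10.8% and 13.7%).

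**Figure D2:**
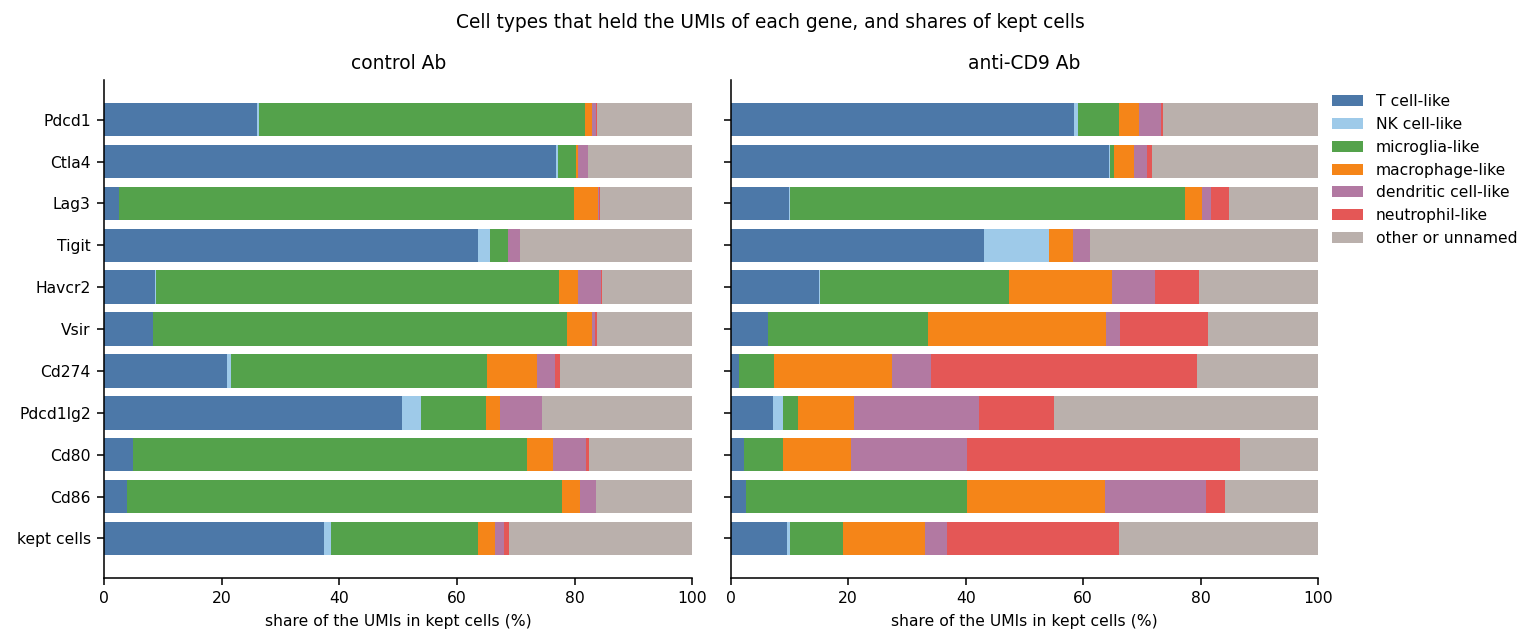
Share of each member's UMIs in kept cells (percent, horizontal axis) found in each cell type, with 1 panel per library, and the shares of kept cells in the lowest bar. Microglia hold 55.5% of *Pdcd1* UMIs in the control Ab panel and 7.01% in the anti-CD9 Ab panel, where neutrophils hold 45.3% of *Cd274* UMIs.

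*Ctla4*, which encodes the receptor that competes for CD80 and CD86, was most abundant in T cells. It had 2044 UMIs (434 CPM, 415 to 453) with control Ab and 1766 UMIs (850.0 CPM, 811 to 891) with anti-CD9 Ab. At 1.96-fold, a log2 ratio of 0.97 (0.88 to 1.06), it fell just short of the 2-fold limit. With 5% mitochondrial counts allowed, the log2 ratio was 0.77, and with each cell weighing the same it was 1.06.

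The T cell clusters differed in *Ctla4*. *Themis*-led T cells had 729.5 CPM with control Ab and 1201 CPM with anti-CD9 Ab, a 1.65-fold ratio. The γδ cells of the *Trdc*-led cluster had 88.3 and 437 CPM, a 4.95-fold ratio with a log2 ratio of 2.31 (2.06 to 2.56). Those intervals of the log2 ratio did not overlap with the 0.62 to 0.82 of the *Themis*-led cluster, although no test between clusters could be made over samples. T cells with a *Foxp3* UMI, the gene that marks regulatory T cells, numbered 84 and 39 and had the highest levels, at 1654 and 2656 CPM.

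After thinning, a *Ctla4* UMI was found in 22.0% of control Ab and 42.8% of anti-CD9 Ab T cells (28.8% and 54.7% unthinned). In oligodendrocytes, which should not carry the gene and had medians of 1015 and 844.5 UMIs, the unthinned shares were 4.36% and 4.26%. Their *Ctla4* level was nevertheless 53.0 CPM (26 UMIs) and 288 CPM (31 UMIs in 4 cells), 5.44-fold higher, with a log2 ratio of 2.44 (1.64 to 3.25). T cell markers in them summed to 1198 and 734 CPM, and the part of RNA from other cells in the *Ctla4* values was not tested.

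In the other 5 cell types compared, *Ctla4* was lower than in T cells and no value with 50 UMIs reached 2-fold. Microglia had 80 and 17 UMIs (7.47 and 5.67 CPM) and macrophages 11 and 96 (8.01 and 14.1 CPM). Dendritic cells had 46 and 61 UMIs (74.0 and 41.8 CPM), a log2 ratio of -0.82 (-1.40 to -0.24). It was -1.92 with cells assigned by their own markers and -1.07 with each cell weighing the same. The *Wdfy4*-led cluster held 43 and 51 of these UMIs, with a log2 ratio of -0.52 (-1.13 to 0.10). T cell markers in dendritic cells summed to 1443 and 323 CPM. There were 5.13 and 12.9 *Ctla4* UMIs per 100 of these marker UMIs, and 4.29 and 9.65 in T cells. The part of T cell RNA in the dendritic cell ratio was not tested. The macrophage log2 ratio was 0.81, and -0.51 without predicted doublets. NK cells had 7 and 4 UMIs (36.9 and 31.0 CPM) and neutrophils 1 and 22 (14.6 and 6.58 CPM). Outside the 6 types *Ctla4* was not uniformly low. The *Ube2c*-led cycling cells had 369 and 452 CPM, the unnamed *P3h2*-led cluster 129 CPM (138 UMIs) and 476 CPM (62 UMIs), and the unnamed *Ighg1*-led cluster 36.5 CPM (5 UMIs) and 95.2 CPM (139 UMIs). Predicted doublets were 79.5% of the *P3h2*-led and 36.8% of the *Ighg1*-led cells.

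**Figure D3:**
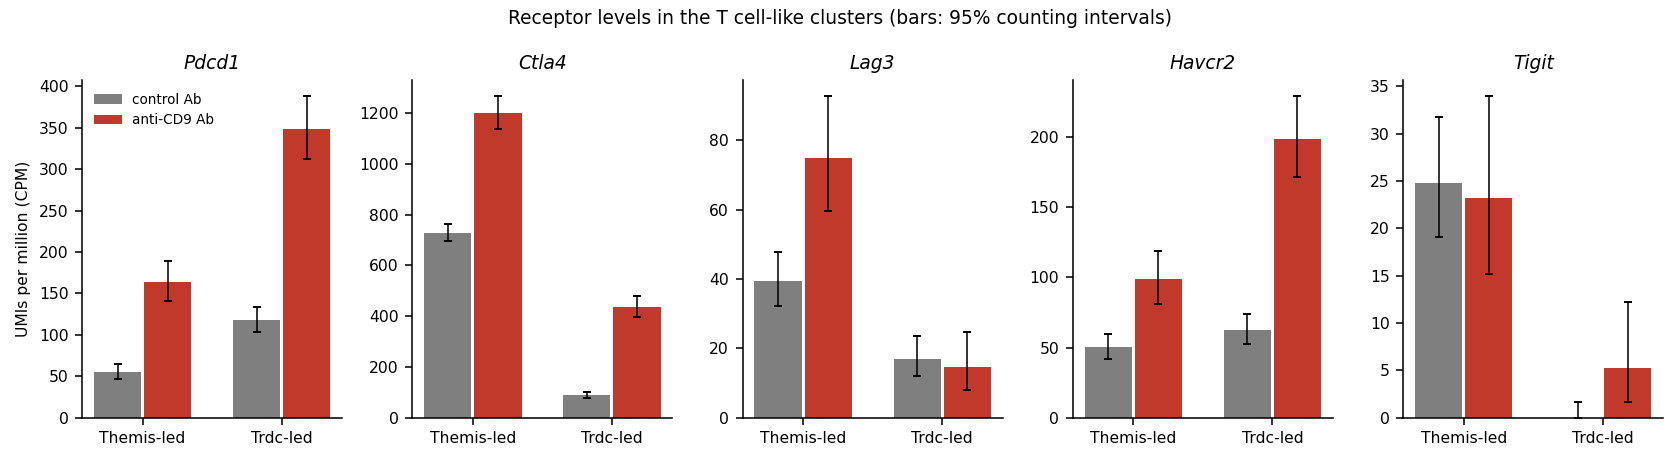
Level in CPM (vertical axis, a scale of its own for each gene) of 5 receptor genes in the *Themis*-led and *Trdc*-led T cell clusters, with grey bars for control Ab, red bars for anti-CD9 Ab and lines for the exact Poisson 95% interval. *Pdcd1* shows ratios of 2.97 and 2.96 in the clusters, while *Ctla4* shows 1.65 in *Themis*-led and 4.95 in *Trdc*-led cells.

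*Havcr2*, the gene of TIM-3, was also higher in T cells with anti-CD9 Ab. It had 264 UMIs (56.0 CPM, 49.5 to 63.2) with control Ab and 301 UMIs (145 CPM, 129 to 162) with anti-CD9 Ab, for a log2 ratio of 1.37 (1.13 to 1.61). The *Trdc*-led cells had the larger ratio, 3.18-fold (62.6 and 199 CPM), against 1.96-fold in *Themis*-led cells (50.4 and 98.9 CPM). In the thinned T cells the shares with a UMI were 4.95% and 9.96% (7.76% and 20.1% unthinned). Microglial markers summed to 474 and 184 CPM in the same T cells. Macrophage markers summed to 837 and 1367 CPM in them and neutrophil markers to 44.8 and 316 CPM. The part of RNA from other cells in the *Havcr2* ratio was not tested.

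In myeloid cells *Havcr2* did not reach 2-fold except in neutrophils. Microglia, which held most *Havcr2* UMIs with control Ab (68.6%), had 195 and 215 CPM, a log2 ratio of 0.14 (0.01 to 0.27). Dendritic cells had 193 and 100.04 CPM (-0.95, -1.31 to -0.59), just under 2-fold lower, and macrophages 69.9 and 50.9 CPM (-0.46, -0.79 to -0.12). *Wdfy4*-led dendritic cells had 113 and 127 UMIs, a log2 ratio of -0.60 (-0.97 to -0.22). *Ccr7*-led dendritic cells, whose share differed between the libraries, had 7 and 19 UMIs (-1.72, -3.03 to -0.23). The macrophage direction turned without integration, at a log2 ratio of 0.42, and the dendritic cell value was -1.84 with cells assigned by their own markers. In neutrophils the value was 2.27-fold lower (102 and 44.9 CPM), but it rested on 7 control Ab UMIs and its interval of -2.26 to 0.15 included no difference, and without integration it was -0.49. NK cells had 3 and 1 UMIs.

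*Lag3* encodes a receptor for MHC class II on T cells and is also transcribed in microglia, where most of its UMIs were found here (77.3% in the control Ab and 67.1% in the anti-CD9 Ab library). Microglia had 4212 UMIs (393 CPM, 381 to 405) with control Ab and 667 UMIs (223 CPM, 206 to 240) with anti-CD9 Ab, for a log2 ratio of -0.82 (-0.94 to -0.70). Both clusters were lower with anti-CD9 Ab, at 255 and 178 CPM in *Siglech*-led and 468 and 281 CPM in *Lpl*-led cells. The shares of thinned microglia with a *Lag3* UMI were 26.7% and 18.5% (61.3% and 43.4% unthinned). This direction depended on how microglia were defined: without integration the log2 ratio was 0.12.

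The largest ratio among the 40 member values with 50 UMIs was that of *Lag3* in macrophages. It had 223 UMIs (162 CPM, 142 to 185) with control Ab and 29 UMIs (4.25 CPM, 2.85 to 6.11) with anti-CD9 Ab, 38.2-fold lower, with a log2 ratio of -5.26 (-5.87 to -4.69). It was -4.21 with cells assigned by their own markers and -4.48 without integration. Microglial markers were lower in the same macrophages, at 3937 and 861 CPM summed, with 12 of 12 detected in each library. *Lag3* stood at 4.12 and 0.494 UMIs per 100 microglial marker UMIs in macrophages, and at 2.67 and 2.41 in microglia. The part of these marker UMIs in the *Lag3* ratio was not tested.

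In T cells *Lag3* was higher but under 2-fold, at 29.1 CPM (137 UMIs) and 47.2 CPM (98 UMIs), a log2 ratio of 0.70 (0.31 to 1.08). *Themis*-led cells had 39.4 and 74.9 CPM, and *Trdc*-led cells 17.0 and 14.6 CPM. T cells with a *Foxp3* UMI had 13 UMIs (67.6 CPM, 36.01 to 116) and 23 UMIs (247 CPM, 157 to 371). The remaining cell types had few *Lag3* UMIs, with 15 and 16 in dendritic cells, 2 and 3 in NK cells and 3 and 30 in neutrophils.

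*Tigit*, whose receptor binds CD155 on antigen-presenting cells, was the receptor with the fewest UMIs. T cells had 63 UMIs (13.4 CPM, 10.3 to 17.1) and 31 UMIs (14.9 CPM, 10.1 to 21.2), and *Themis*-led cells held all 63 and 26 of the 31, at 24.8 and 23.2 CPM. *Trdc*-led cells had 0 and 5 UMIs. NK cells had 2 and 8, a log2 ratio of 2.56 with the wide interval of 0.23 to 5.83. Microglia had 3 and 0, macrophages 0 and 3, dendritic cells 2 and 2, and neutrophils 0 and 0.

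*Vsir*, the gene of VISTA, was lower with anti-CD9 Ab in each of the 6 cell types as defined here, although only neutrophils passed 2-fold. Microglia had 3822 UMIs (357 CPM, 345 to 368) and 687 UMIs (229 CPM, 212 to 247), a log2 ratio of -0.64 (-0.76 to -0.52). Macrophages had 165 and 112 CPM (-0.56, -0.77 to -0.34) and T cells 94.2 and 76.5 CPM (-0.30, -0.57 to -0.04). The direction was shared by both microglial clusters, at 484 and 291 CPM in *Siglech*-led and 288 and 148 CPM in *Lpl*-led cells.

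Neutrophils had 17 *Vsir* UMIs (248 CPM, 144 to 397) with control Ab and 382 UMIs (114 CPM, 103 to 126) with anti-CD9 Ab, 2.17-fold lower (-1.12, -1.81 to -0.32). Within the *Retnlg*-led cluster, which held 50 of the 61 control Ab neutrophils, the values were 273 and 172 CPM with a log2 ratio of -0.67 (-1.39 to 0.16). Dendritic cells (30 and 58 UMIs, -0.28, -0.94 to 0.41) and NK cells (8 and 3 UMIs) had intervals that included no difference, and under other definitions of dendritic cells the log2 ratio ran from -0.39 to 0.20.

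*Cd274*, the gene of PD-L1, was higher with anti-CD9 Ab in each of the 4 myeloid cell types. Neutrophils had 15 UMIs (219 CPM, 122 to 361) with control Ab and 6018 UMIs (1800.5 CPM, 1755 to 1847) with anti-CD9 Ab, 8.24-fold higher, with a log2 ratio of 3.04 (2.32 to 3.88). Dendritic cells had 52 UMIs (83.6 CPM, 62.5 to 110) and 866 UMIs (593 CPM, 554 to 634), 7.10-fold higher (2.83, 2.42 to 3.26). Their log2 ratio was 2.29 with 5% mitochondrial counts allowed and 3.41 without predicted doublets. In neither cell type did the intervals of the libraries overlap. Of the 15 control Ab neutrophil UMIs, 13 came from the 11 cells of the *Cxcl2*-led cluster.

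Macrophages and microglia had near equal *Cd274* ratios. Macrophages had 140 UMIs (102 CPM, 85.7 to 120) and 2682 UMIs (393 CPM, 378 to 408), a log2 ratio of 1.95 (1.70 to 2.20). Microglia had 719 UMIs (67.1 CPM, 62.3 to 72.2) and 783 UMIs (261 CPM, 243 to 280), a log2 ratio of 1.96 (1.81 to 2.11), which was 1.33 without integration. T cells had a smaller ratio, at 73.2 CPM (345 UMIs) and 86.6 CPM (180 UMIs), a log2 ratio of 0.24 (-0.03 to 0.51). Its size moved with the clustering, to 0.79 with 20 principal components and 0.78 at resolution 0.4. NK cells had 10 and 8 UMIs.

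The order of the 6 cell types by *Cd274* differed between the libraries. With anti-CD9 Ab it ran from neutrophils through dendritic cells, macrophages and microglia to T cells and NK cells, and only the last pair (86.6 and 62.0 CPM) had overlapping intervals. With control Ab neutrophils were also highest, and below them each pair of neighbours in the order of macrophages, dendritic cells, T cells, microglia and NK cells had overlapping intervals.

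The shares of cells with a *Cd274* UMI gave the same order of libraries. After thinning they were 5.53% and 18.0% in microglia (22.8% and 40.8% unthinned), 11% and 25.4% in macrophages (36.8% and 60.5%) and 7.96% and 37.4% in dendritic cells (19.1% and 61.5%). For neutrophils thinning left 19 control Ab cells, of which 0 had a UMI, which allows a share of up to 15.8% (3 counts of 19; the exact binomial limit is 17.6%), and 61.0% of 1825 anti-CD9 Ab cells had one. The unthinned neutrophil shares were 9.84% (3.70 to 20.2) and 58.9% (57.0 to 60.7).

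Subsets of the same type differed in level. Among neutrophils, the *Cxcl2*-led cluster (11 and 1389 cells), whose leading genes are inflammatory chemokines and interferon-induced genes, had 1285 and 2731 CPM, a 2.12-fold ratio. The *Retnlg*-led cluster (50 and 1298 cells) had 34.2 CPM from 2 UMIs and 578 CPM from 834 UMIs. The *Cxcl2*-led ratio, a log2 ratio of 1.09 (0.31 to 2.00), was below the 8.24-fold of all neutrophils. The *Retnlg*-led ratio was above it, at 16.9-fold on 2 control Ab UMIs. The *Cxcl2*-led cluster held 11 of 61 control Ab and 1389 of 2687 anti-CD9 Ab neutrophils. In dendritic cells the *Wdfy4*-led cluster had 42.4 and 226 CPM (5.32-fold), and the mature *Ccr7*-led cluster (17 and 158 cells) had 502 and 1303 CPM (2.59-fold). Both of these ratios were below the 7.10-fold of all dendritic cells. The mature cluster held 17 of 115 control Ab and 158 of 343 anti-CD9 Ab dendritic cells. Microglia of the *Siglech*-led cluster had 45.9 and 259 CPM (5.64-fold) and those of the *Lpl*-led cluster 78.6 and 265 CPM (3.37-fold).

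**Figure D4:**
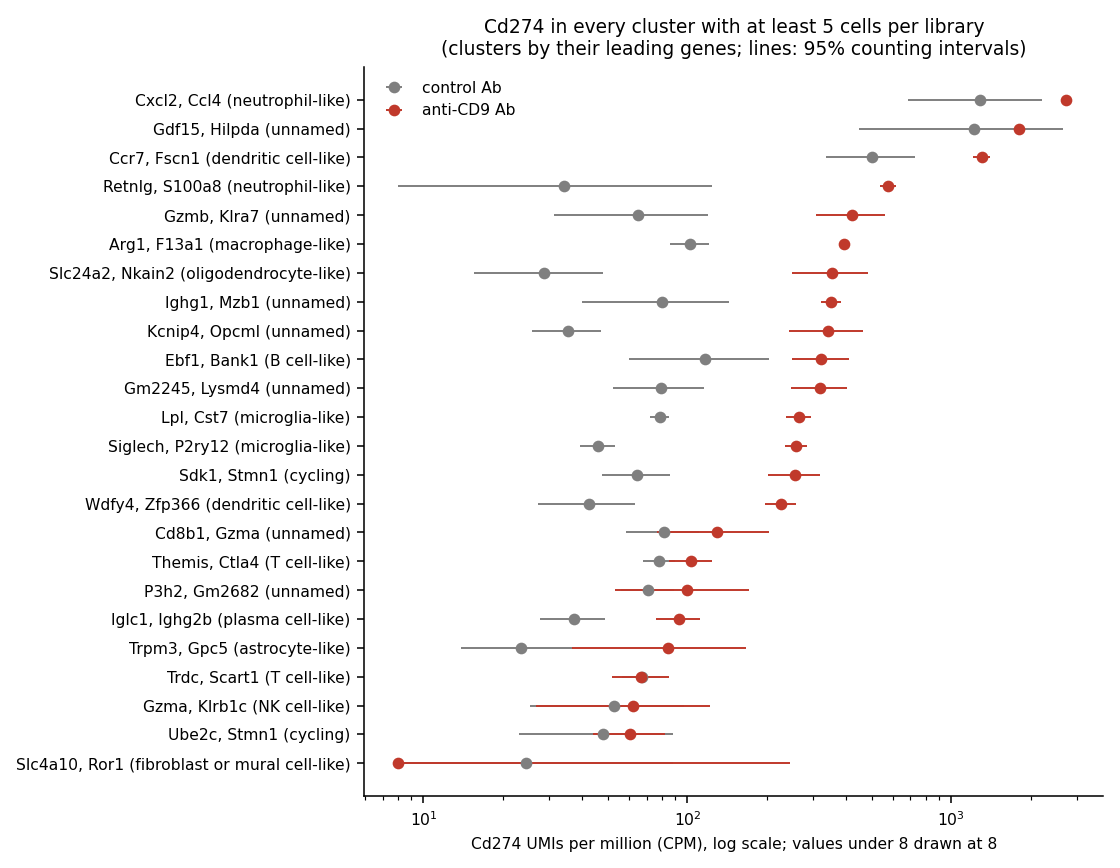
*Cd274* in CPM (horizontal log axis) in every cluster with at least 5 cells in each library, named by leading genes, with a grey point for control Ab, a red point for anti-CD9 Ab and lines for the exact Poisson 95% interval (values under 8 are drawn at 8). With anti-CD9 Ab the *Cxcl2*-led neutrophils reach 2731 CPM and the mature *Ccr7*-led dendritic cells 1303 CPM, while the *Trdc*-led T cells show overlapping points at 67.2 and 67.0 CPM.

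UMIs of neutrophil markers were also found in other cell types, at levels that differed between the libraries. The 13 neutrophil markers summed to 527 and 1297 CPM in microglia, 627 and 1306 CPM in macrophages, 67.5 and 858 CPM in dendritic cells and 44.8 and 316 CPM in T cells. In cycling cells the sum went the other way, at 2267 and 255 CPM. The source of these UMIs was not tested. With anti-CD9 Ab there were 4.02 *Cd274* UMIs per 100 neutrophil marker UMIs in neutrophils (8.34 in the *Cxcl2*-led and 0.952 in the *Retnlg*-led cluster). The same ratio was 20.1 in microglia, 30.1 in macrophages, 69.2 in dendritic cells and 27.4 in T cells. It was 19.4 in the unnamed *Gdf15*-led cluster.

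Oligodendrocytes, a non-immune cell type, also carried more *Cd274* with anti-CD9 Ab. They had 14 UMIs (28.5 CPM) and 38 UMIs (353 CPM), with 6.53 *Cd274* UMIs per 100 neutrophil marker UMIs in the anti-CD9 Ab library. Their neutrophil markers summed to 157 and 5407 CPM. Plasma cells had a *Cd274* UMI in 2.84% and 6.96% of cells after thinning. The part of RNA from other cells in each *Cd274* ratio was not tested.

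The promoter of *Cd274* is shown because the gene had the highest ratio of the passing members in each of the 4 myeloid cell types. The RefSeq window runs from 250 bases before to 50 bases after the annotated start, at chr19:29367188-29367487 on the + strand of GRCm38.p6, while the counts were made on GRCm39. Capitals mark the 2 matches to GAAANC, the core of sites for interferon regulatory factors, searched on both strands.

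Cd274: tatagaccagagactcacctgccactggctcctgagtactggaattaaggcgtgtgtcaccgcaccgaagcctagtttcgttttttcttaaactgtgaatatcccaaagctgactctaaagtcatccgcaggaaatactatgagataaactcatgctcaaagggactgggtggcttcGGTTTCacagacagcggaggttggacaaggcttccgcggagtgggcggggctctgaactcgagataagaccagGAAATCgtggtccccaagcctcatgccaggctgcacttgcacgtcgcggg

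The same letters occur in 49.1% of the 32851 promoter windows of this length, so a match is common. *Pdcd1lg2* and *Tigit* windows held 3 and 2 matches. The window of *Cd274* held no TTCNNNGAA (a gamma-activated site, in 8.30% of windows), no TGANTCA (an AP-1 site, 7.81%) and no interferon-stimulated response element core (GAAA and GAAA with 2 bases between them, 3.44%). Among the 8 members with a window, those of *Cd80* and *Havcr2* each held 1 TGANTCA. A match is a run of letters and not a site in use, and *Lag3* and *Cd86* had no window.

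*Pdcd1lg2*, the gene of the other PD-1 ligand PD-L2, was higher in dendritic cells, at 24 UMIs (38.6 CPM, 24.7 to 57.4) and 183 UMIs (125 CPM, 108 to 145), a log2 ratio of 1.70 (1.08 to 2.38). Its size moved with the definition of the cells, to 2.38 without predicted doublets and 4.47 with cells assigned by their own markers. Both dendritic cell clusters were higher, at 31.8 and 82.2 CPM in *Wdfy4*-led and 108 and 209 CPM in *Ccr7*-led cells. The ratios within these clusters were 2.58- and 1.94-fold, below the 3.25-fold of all dendritic cells. Microglia (37 and 22 UMIs, 3.45 and 7.34 CPM) and macrophages (8 and 82 UMIs, 5.82 and 12.0 CPM) also passed 2-fold, with log2 ratios of 1.09 (0.26 to 1.89) and 1.05 (-0.0006 to 2.30).

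Those microglial and macrophage levels were low and their ratios moved with the definition of the cells, between 0.06 and 1.35 in microglia and between 0.69 and 1.70 in macrophages. Neutrophils had 0 UMIs with control Ab and 109 UMIs (32.6 CPM, 26.8 to 39.3) with anti-CD9 Ab. The floor of 3 counts in the shallow control Ab neutrophils was 43.7 CPM, so no fold can be given. T cells had 170 and 62 UMIs (36.1 and 29.8 CPM, -0.27, -0.72 to 0.15), and NK cells 11 and 15 UMIs (58.0 and 116 CPM).

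*Cd80*, a ligand of both CD28 and CTLA-4, was higher in dendritic cells, neutrophils and T cells. Dendritic cells had 29 UMIs (46.6 CPM, 31.2 to 67.0) and 334 UMIs (229 CPM, 205 to 255), a log2 ratio of 2.29 (1.75 to 2.90), which was 3.03 without predicted doublets and 3.14 with cells assigned by their own markers. Both clusters were higher, at 28.3 and 60.3 CPM in *Wdfy4*-led and 233 and 554 CPM in *Ccr7*-led cells. The ratios within these clusters were 2.13- and 2.38-fold, below the 4.91-fold of all dendritic cells. The share of *Ccr7*-led cells among dendritic cells differed between the libraries (17 of 115 and 158 of 343). The thinned shares of dendritic cells with a UMI were 6.19% and 18.5% (14.8% and 37.6% unthinned).

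In neutrophils *Cd80* had 3 UMIs (43.7 CPM, 9.02 to 128) and 780 UMIs (233 CPM, 217 to 250), a log2 ratio of 2.42 with an interval of 0.86 to 4.70, and 3.72 without integration. The share of neutrophils among all *Cd80* UMIs was 46.4% with anti-CD9 Ab, where microglia held 6.66%, against 67.1% in microglia with control Ab. T cells had 25 UMIs (5.31 CPM, 3.43 to 7.83) and 39 UMIs (18.8 CPM, 13.3 to 25.7), a log2 ratio of 1.82 (1.06 to 2.61) at low level, and 1.20 with 5% mitochondrial counts allowed. Neutrophil markers summed to 44.8 and 316 CPM in these T cells, and their part in the ratio was not tested. Microglia (32.2 and 37.4 CPM, 0.22, -0.11 to 0.53) and macrophages (16.0 and 28.3 CPM, 0.82, 0.18 to 1.53) stayed under 2-fold, and NK cells had 0 UMIs in both libraries.

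*Cd86*, the partner of CD80 on antigen-presenting cells, did not reach 2-fold in any of the 6 cell types. Its UMIs were mostly in microglia (74.1% with control Ab), at 4600 UMIs (429 CPM, 417 to 442) and 1497 UMIs (499.6 CPM, 475 to 526), a log2 ratio of 0.22 (0.13 to 0.30). Dendritic cells had 269 and 470.0 CPM, a log2 ratio of 0.81 (0.56 to 1.06). That value differed by cluster, with 283 and 313 CPM in *Wdfy4*-led cells and 126 CPM (7 UMIs) and 773 CPM (385 UMIs) in *Ccr7*-led cells. Macrophages (139 and 137 CPM) and T cells (50.5 and 49.1 CPM) had log2 ratios of -0.02 (-0.25 to 0.21) and -0.04 (-0.39 to 0.30). Neutrophils had 2 and 129 UMIs (29.1 and 38.6 CPM), and NK cells 0 and 4.

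**Figure D5:**
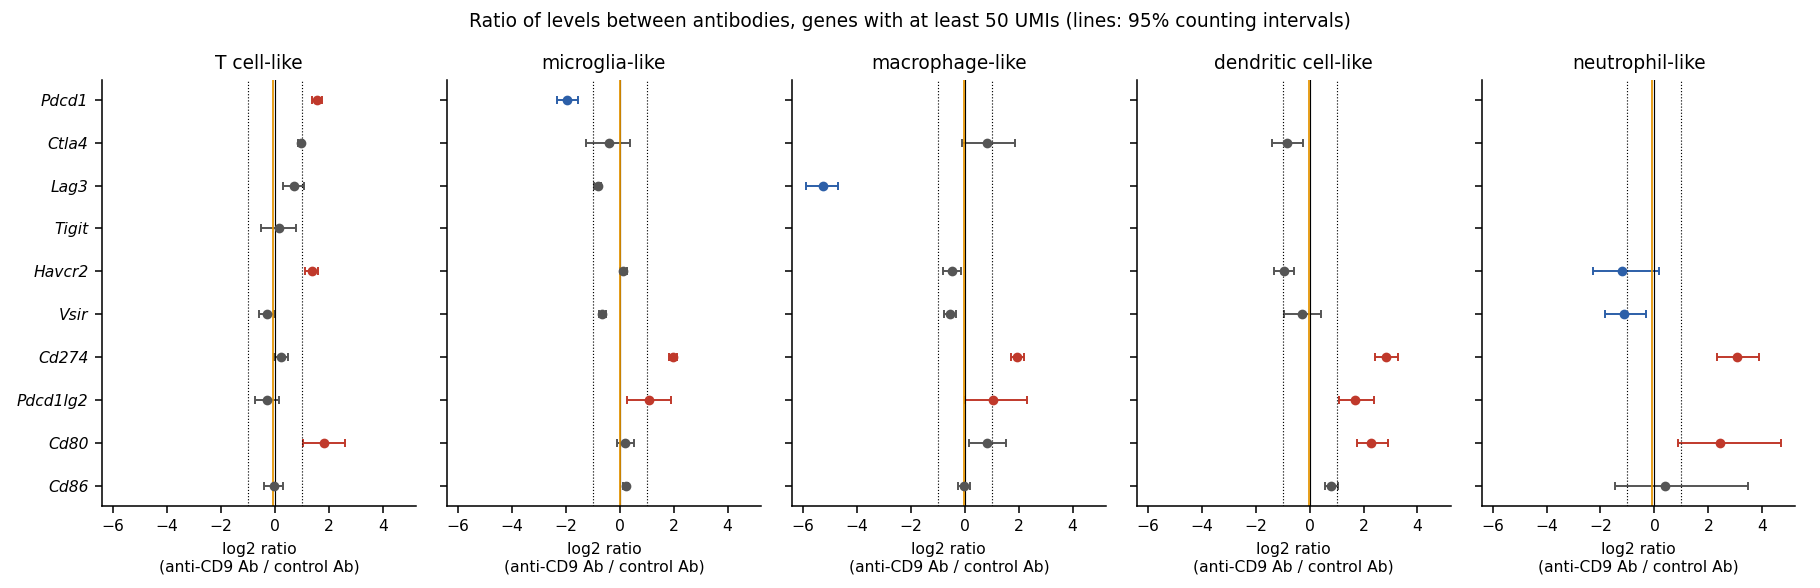
Log2 ratio of anti-CD9 Ab over control Ab (horizontal axis) for each member with at least 50 UMIs, 1 panel per cell type, with lines for the exact conditional 95% interval, dotted lines at the 2-fold limits and an orange line at the median of all genes tested. Red points are at least 2-fold higher and blue points at least 2-fold lower: *Cd274* is red in the 4 myeloid panels and *Lag3* in macrophages lies farthest left, at -5.26.

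Another 68 genes of the pathway (other coinhibitory and costimulatory receptors, their ligands, regulators of T cell exhaustion and signalling partners) gave a second frame. This list too was proposed with earlier results of these data known. In T cells 51 passed 50 UMIs, 4 were higher and 0 lower, with a median log2 ratio of 0.14. Of all genes tested in T cells, 1.69% were higher and 2.28% lower. The highest were *Tnfrsf9* (4-1BB, a costimulatory receptor induced by activation) at 52.8 and 326 CPM (2.63), *Klrc1* (NKG2A, an inhibitory receptor) at 1.77 and *Nr4a3* (a nuclear receptor induced by T cell receptor signalling) at 1.67. The last pair rested on few UMIs, 20 and 30 for *Klrc1* (0.90 to 2.66) and 27 and 38 for *Nr4a3* (0.92 to 2.44). The lowest were *Klrg1* (-0.82), *Sirpa* (-0.80) and *Lair1* (-0.74), none of which reached 2-fold. *Tox*, a regulator of exhaustion named after its values were seen, stood at 0.11 (0.00 to 0.21) with 2402 and 1140 UMIs.

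In each myeloid type the same list held both higher and lower genes. Microglia had 40 passing genes, 4 higher and 11 lower, against 3.36% and 4.48% of all genes tested. The highest were *Cd244a* (2.39), a receptor of the SLAM family, *Cd40* (1.88) and *Nr4a1* (1.23). The lowest were the T cell genes *Cd2* (-4.88), *Lck* (-4.64) and *Cd3e* (-3.03), of which *Cd2* and *Lck* each had 1 anti-CD9 Ab UMI. Macrophages had 38 passing, 7 higher and 6 lower, against 8.06% and 6.32% of all genes tested. The highest were *Tnfrsf9* (3.47), *Cd200* (2.73) and *Tnfsf9* (2.30), the ligand of 4-1BB. These rested on 3, 3 and 8 control Ab UMIs. The lowest were again T cell genes, *Cd5* (-2.83), *Lck* (-1.93) and *Cd3e* (-1.43).

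Dendritic cells had 38 passing, 7 higher and 5 lower, against 7.41% and 3.61% of all genes tested. The highest were *Cd200* (2.91), which encodes a ligand that restrains myeloid cells, *Nr4a3* (2.14) and *Nr4a2* (1.71). The lowest were the T cell genes *Cd5* (-2.66), *Cd2* (-2.57) and *Lck* (-2.51). T cell markers, which include *Cd2* and *Lck* themselves, summed to 1443 and 323 CPM in the same dendritic cells. Of these cells 20% and 8.75% were predicted doublets, and the part of T cell RNA was not tested.

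*Cd40*, a costimulatory receptor of antigen-presenting cells named for dendritic cells and macrophages after its values were seen, was higher in dendritic cells (57.9 and 169 CPM, 1.54), macrophages (23.3 and 92.2 CPM, 1.98) and microglia (6.25 and 23.03 CPM, 1.88). Neutrophils had 22 passing, 5 higher and 5 lower, against 13.1% and 19.5% of all genes tested. The highest were *Nr4a3* (3.72), *Batf* (3.23) and *Nr4a1* (2.94), each with at most 2 control Ab UMIs. The lowest were *Sirpa* (-1.59), *Cmtm6* (-1.17) and *Lair1* (-1.13). NK cells had 16 passing, with *Fyn* (1.07) higher and *Lgals3* (-1.50) lower, against 5.62% and 1.96% of all genes tested. The next values were *H2-T23* (0.70) and *Inpp5d* (0.53) above and *Lck* (-0.90) and *Cd226* (-0.65) below no difference.

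*Ctla4* and *Pdcd1* UMIs were also counted in the same T cells. In the *Trdc*-led cluster with anti-CD9 Ab, thinned to 1000 UMIs, a *Ctla4* UMI was present in 33.8% of 77 cells with a *Pdcd1* UMI and in 20% of 235 cells without, with overlapping intervals (23.4 to 45.4 and 15.1 to 25.7). In the *Themis*-led cluster the shares were 59.4% of 64 and 54.6% of 427 cells. With control Ab they were 6.92% of 130 and 5.22% of 1073 *Trdc*-led cells. The *Themis*-led cells went the other way with control Ab, at 34.2% of 73 and 38.3% of 1169 cells, with overlapping intervals. Cells of 1 library are not replicates, so these shares are a description.

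The genes whose level was most like each member's over the 12 points (6 cell types in 2 libraries) were listed by Pearson's r of log2(CPM + 10) among genes with at least 200 UMIs. *Cd274* was nearest to *Gbp2* (0.967), an interferon-induced GTPase, and *Il1rn* (0.959), the interleukin-1 receptor antagonist. *Ctla4* was nearest to *Icos* (0.975), a costimulatory receptor of T cells, and *Cd80* to *Rel* (0.937), an NF-κB subunit. *Pdcd1lg2* was nearest to *Ahr* (0.941), *Lag3* to *Magi1* (0.960), *Pdcd1* to *Farp1* (0.891), *Cd86* to *Nckipsd* (0.953), *Havcr2* to *Dnajc16* (0.915), *Vsir* to *Pttg1ip* (0.950) and *Tigit* to *Elovl6* and *Sytl3* (0.957). The minimum of 200 UMIs was not set for the members, and *Tigit* rested on few UMIs. It had 63 and 31 in T cells, 2 and 8 in NK cells and at most 3 at any other point. The points of 1 library share its depth and free RNA.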

How the data were processed

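The deposited matrices hold whole-number UMI counts per gene and cell, which the authors made with Cell Ranger 8.0.0 on GRCm39 per the labels' processing notes. Cells with 200 to 7500 genes and at most 2% mitochondrial counts were kept, as in the study's methods. Libraries were integrated and clustered in Seurat 5.3.0 (R 4.3.3) with 2000 variable genes, 30 principal components and resolution 0.8, leaving the members and the pathway list out of the variable genes. Clusters were named from marker lists, and the limits for leaving a cluster unnamed were set after the data were seen. Doublets were predicted with Scrublet in scanpy 1.11.5 (9.79% of control Ab and 12.1% of anti-CD9 Ab cells) and kept except in 1 alternative.

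UMIs were summed per library and cell type and divided by the summed UMIs of all genes (CPM). Intervals came from scipy 1.17.1 in Python 3.11.15, and the calculation was tested on simulated data. With 1 library per antibody, there is no test. The genes named are the 10 members, the pathway genes with the 3 highest and lowest ratios in each cell type, the nearest genes by pattern, cluster leaders, *Ptprc* and *Cd9*. *Tox*, and *Cd40* outside microglia, were named after their values were seen. The members and gene lists were proposed with earlier results of these data known. In the annotation *Cd274*, *Pdcd1lg2* and *Vsir* share positions with opposite-strand genes (AC119228.1, A930007I19Rik and *Cdh23*), and *Ctla4* with the same-strand Rpl18-ps1. The part of these genes in the members' counts was not tested. Alternatives changed the mitochondrial limit, integration, doublets, components, resolution, the assignment, scaling and weighting of cells, the count minimum and the thinning depth.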

Additional observations from a re-analysis of the deposited data

Results flagged for a closer look

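*Pdcd1* had opposite directions in T cells and microglia. Its log2 ratio of anti-CD9 Ab over control Ab was 1.57 in T cells and -1.93 in microglia, 3.50 apart. *Havcr2* had log2 ratios of 1.37 in T cells and -1.18 in neutrophils, 2.56 apart, the latter resting on 7 control Ab UMIs. With 1 library per antibody, neither difference was tested.

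The cells of the 8 unnamed clusters, which were in none of the 6 cell types as reported, although some were added in alternatives, held *Cd274*, *Pdcd1lg2* and *Cd80* above the control Ab level. *Cd274* stood at 744 CPM with anti-CD9 Ab and 61.8 CPM with control Ab. *Pdcd1lg2* stood at 104 and 13.7 CPM, and *Cd80* at 54.3 and 12.0 CPM. Much of the *Cd274* was in the *Gdf15*-led cluster, with 5 cells from control Ab and 814 from anti-CD9 Ab, where it had 6 and 1510 UMIs (1215 CPM, 446 to 2644, and 1811 CPM, 1721 to 1905). The same cluster had 0 and 255 *Pdcd1lg2* UMIs, or 306 CPM (269 to 346) with anti-CD9 Ab, and 3 of the 13 neutrophil markers were higher in it than in the rest of the kept cells.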

How the results depend on the processing

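The 16 values called at least 2-fold kept their direction under every alternative run, and 11 stayed past 2-fold under all of them. The exceptions were *Pdcd1lg2* in microglia (0.06 to 1.35) and macrophages (0.69 to 1.70), *Pdcd1* in microglia (-2.02 to -0.67), and *Havcr2* (-1.38 to -0.49) and *Vsir* (-1.20 to -0.95) in neutrophils. Over 31 results, 236 of 264 alternative values moved by less than counting error and 28 moved further. These results included *Cd274* in microglia, macrophages and dendritic cells, *Lag3* in macrophages and *Pdcd1* in microglia. Over another 10 results, 79 of 88 alternative values moved by less than counting error and 9 moved further. The 10 included *Pdcd1lg2* in NK cells, which was under the count minimum. Its log2 ratio fell from 1.00 to 0.28 with 5% mitochondrial counts, within its interval of -0.22 to 2.27. So wide an interval could hardly register a move. Without integration (2020 and 201 microglia), log2 ratios in microglia were 0.12 for *Lag3* (reported as -0.82), 0.36 for *Cd86* (0.22) and 0.33 for *Havcr2* (0.14), and the cause was not tested. In T cells, *Pdcd1* was 1.32 with each cell weighing the same and 1.37 with all clusters carrying T cell markers added, an alternative chosen after seeing the data (1.57). *Ctla4* in T cells was 0.77 with 5% mitochondrial counts, 0.87 with cells assigned by their own markers, 1.06 with equal weights and 0.82 with the added clusters (0.97). The count of lower member values was 2 without integration, 7 with cells assigned by their own markers and 8 with a minimum of 20 UMIs (4). The count of higher values ran from 9 to 13 (12). The differences in shares of cells with a UMI rest on depth and were 18.2 percentage points unthinned and 19.1 at 2000 UMIs for *Pdcd1* in T cells (9.26 at 1000). No paired analysis was possible because each antibody has 1 library and no test was made. The shallow control Ab neutrophils (68617 UMIs) and the NK cells limit every member there.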

Other observations

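Cell types outside the 6 compared also carried members. The *Cd8b1*- and *Gzma*-led cluster (227 control Ab and 58 anti-CD9 Ab cells) carried 10 of 10 T cell markers but was left unnamed. In it *Pdcd1* stood at 71.6 CPM (50.2 to 99.2) and 100.3 CPM (54.8 to 168), with overlapping intervals. *Tigit* stood at 27.9 CPM (14 UMIs) and 28.6 CPM (4 UMIs). The *Ube2c*-led cycling cluster (44 and 106 cells) had *Ctla4* at 369 CPM (292 to 462) and 452 CPM (403 to 505) and *Havcr2* at 38.4 CPM (8 UMIs) and 126 CPM (87 UMIs). B cells of the *Ebf1*-led cluster (30 and 99 cells) had *Cd274* at 117 CPM (12 UMIs) and 321 CPM (66 UMIs), and *Cd80* at 97.1 CPM (10 UMIs) and 43.8 CPM (9 UMIs). *Cd9* itself was 4040 and 1794 CPM in microglia, 4162 and 391.5 CPM in macrophages and 2230 and 2365 CPM in neutrophils.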
